A study of Homo sapiens with 11 samples.

Results

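The replication-dependent histone genes are the 76 genes whose symbols start with HIST1H, HIST2H, HIST3H or HIST4H, out of 28252 genes listed in the RNA-Seq files of RT4 cells. They encode the linker histone H1 (6 genes) and the core histones H2A (18), H2B (21), H3 (16) and H4 (15), and 6 of them are pseudogenes or noncoding. HIST1 (56 genes) lies on chromosome 6, HIST2 (16) and HIST3 (3) on chromosome 1, and HIST4 (1) on chromosome 12. Of these, 73 are also listed among the 26237 promoters of the H3K4me3 ChIP-Seq files of BEAS-2B cells, and 69 are above 0 in at least 1 library there. HIST2H3A, HIST2H3C, HIST2H4A and HIST2H4B are listed at 0 in all 3 libraries and were not counted. They form pairs of near-identical copies, but the reason for the 0 values was not tested. The promoter windows (2 kb on each side of the start site) of HIST2H3C and HIST2H3A overlap those of HIST2H2AA3 and HIST2H2AA4, which are above 0. The RT4 line comes from a human bladder cancer and keeps epithelial features, and BEAS-2B is an immortalized line of human bronchial epithelium. UT cells received no nickel. Ni-E cells were kept for 6 weeks with NiCl2 at 100 μM. The same exposure preceded a nickel-free period in Ni-W cells. RT4 Ni-W cells spent 2 weeks without nickel. The BEAS-2B Ni-W population was expanded from a single colony and kept for more than 6 months, so that it is 1 clone of exposed cells. Elsewhere the labels give 2 weeks without nickel for both lines, and the longer time is the one stated for the population examined. RNA-Seq has 2 libraries per group, described as biological replicates, and H3K4me3 has 1 library per condition.

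A cell needs new histones when it copies its DNA, and these genes are transcribed mainly in S phase. Their mRNAs usually lack a poly(A) tail and end instead in a short stem-loop that is bound by SLBP, the stem-loop binding protein. NPAT, a substrate of cyclin E-CDK2, and CASP8AP2 (also called FLASH) act in the histone locus body, where these genes are transcribed and their mRNAs processed. Some members also give polyadenylated transcripts. The labels name an Illumina TruSeq RNA kit and no selection step. This kit by its usual protocol selects RNA with poly(A) tails, and the values are then those of histone transcripts caught by such a selection, not of all histone mRNA.

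To show the element that sets this family apart, the stem-loops were read from the hg38 genome within the first 1000 bases of each gene. The search took 6 paired bases, a loop of 4 bases that starts with T, and the 6 complementary bases. A match was found in 70 of 75 genes with a known strand, against 2 of 5733 other RefSeq genes on the same chromosomes (0.0349%). HIST1H2AD and HIST1H3D, whose gene models start at the same base, share 1 match, which is counted for both. All 15 H4 genes with a match had the stem GGCCCT, and all 55 matches in H1, H2A, H2B and H3 genes had GGCTCT. The loop was TTTC in 53 of the 70 genes. Another 10 genes, 5 of them H2B genes, had the loop TTTA. Shown are the members called in any fit, the 5 known for polyadenylated transcripts and the highest H3 gene, given from 5′ to 3′ as DNA letters, with the 16 bases of the stem-loop, whose hg38 coordinates are given, in capitals.
HIST1H1C (chr6:26055744-26055759, minus strand): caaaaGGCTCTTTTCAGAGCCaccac
HIST1H2AC (chr6:26124669-26124684, plus strand): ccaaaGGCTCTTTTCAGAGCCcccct
HIST1H2BD (chr6:26158587-26158602, plus strand): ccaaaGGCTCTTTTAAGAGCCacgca
HIST1H2BK (chr6:27146366-27146381, minus strand): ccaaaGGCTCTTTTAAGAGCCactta
HIST1H2BG (chr6:26216218-26216233, minus strand): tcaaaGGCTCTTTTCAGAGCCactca
HIST2H2BE (chr1:149886188-149886203, minus strand): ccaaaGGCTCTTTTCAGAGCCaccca
HIST3H2A (chr1:228457369-228457384, minus strand): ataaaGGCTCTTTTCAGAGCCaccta
HIST1H3C (chr6:26045849-26045864, plus strand): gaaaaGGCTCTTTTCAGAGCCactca
HIST1H4E (chr6:26205001-26205016, plus strand): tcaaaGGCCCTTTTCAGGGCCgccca
The HIST2H2BE stem-loop is followed by a long stretch of transcribed sequence, since the RefSeq gene runs on for 1729 bases past it. HIST1H2BK runs 8073 bases past its stem-loop and HIST1H2BD 12747 bases, whereas HIST1H1C, HIST1H2AC, HIST3H2A, HIST1H3C and HIST1H4E end 4 to 6 bases past it. The gene models of 60 of the 70 genes end within 20 bases of the stem-loop.

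RefSeq promoter sequences, from 250 bases before the start of the gene to 50 bases after it on GRCh38.p14, were matched for 66 members. TATAAA was found on either strand in 44 of them (66.67%), against 11.95% of the 27305 promoters in the table. CCAAT was found in 56 (84.85%, against 35.70%) and the octamer ATTTGCAT in 26 (39.39%, against 1.80%). These motifs were split by class. The octamer was present in 14 of 18 H2B promoters and 11 of 16 H2A promoters, but in 1 of 13 H3 promoters and in none of the 6 H1 and 13 H4 promoters. The 1 H3 promoter is that of HIST1H3D, which has the same interval and sequence as the HIST1H2AD promoter. The windows of divergent H2A and H2B pairs, such as HIST2H2AC and HIST2H2BE, also overlap. The class counts are therefore not counts of separate sequences. CCAAT was present in every H1, H2A, H2B and H3 promoter of the table and in 3 of 13 H4 promoters. A match describes the sequence only. The promoters of 4 members are shown. HIST2H2BE has the clearest RNA difference, HIST1H2AC and HIST3H2A have high H3K4me3 with scores of opposite sign in Ni-W cells, and HIST1H4E has none of the 3 motifs. Capitals mark these motifs or their reverse complements.
HIST2H2BE (chr1:149886633-149886932, minus strand): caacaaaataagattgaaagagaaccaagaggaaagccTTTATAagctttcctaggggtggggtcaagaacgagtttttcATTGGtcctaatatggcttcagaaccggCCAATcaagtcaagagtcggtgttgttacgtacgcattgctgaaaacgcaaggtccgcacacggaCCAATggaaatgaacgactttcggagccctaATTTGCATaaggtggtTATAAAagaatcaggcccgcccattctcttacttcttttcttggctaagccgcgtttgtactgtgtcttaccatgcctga
HIST1H2AC (chr6:26123922-26124221, plus strand): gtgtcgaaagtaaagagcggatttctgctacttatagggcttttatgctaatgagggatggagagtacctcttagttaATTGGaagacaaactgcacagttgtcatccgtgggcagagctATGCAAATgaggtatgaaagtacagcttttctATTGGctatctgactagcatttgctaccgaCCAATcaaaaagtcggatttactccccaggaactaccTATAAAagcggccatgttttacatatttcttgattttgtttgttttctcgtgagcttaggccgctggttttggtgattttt
HIST3H2A (chr1:228457824-228458123, minus strand): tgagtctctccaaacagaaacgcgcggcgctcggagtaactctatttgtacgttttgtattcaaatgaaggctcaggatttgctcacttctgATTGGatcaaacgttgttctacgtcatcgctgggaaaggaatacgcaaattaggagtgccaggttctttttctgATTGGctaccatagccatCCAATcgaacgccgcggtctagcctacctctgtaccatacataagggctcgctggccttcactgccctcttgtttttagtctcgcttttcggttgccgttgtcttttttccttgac
HIST1H4E (chr6:26204360-26204659, plus strand): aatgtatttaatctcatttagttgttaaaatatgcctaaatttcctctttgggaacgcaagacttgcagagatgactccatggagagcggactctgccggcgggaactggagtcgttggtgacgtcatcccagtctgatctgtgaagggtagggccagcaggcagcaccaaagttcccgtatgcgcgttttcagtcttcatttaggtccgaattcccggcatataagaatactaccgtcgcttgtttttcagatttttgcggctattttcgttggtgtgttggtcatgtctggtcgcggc

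The RT4 libraries held 17075833 to 27736454 estimated counts. All 12 urothelial markers, among them GATA3, PPARG and KRT7, were above 10 TPM in every library (summed 13403 to 17003 TPM). The 6 fibroblast markers summed to at most 5.1 TPM, the 5 leukocyte markers to at most 0.9 and the 4 endothelial markers to at most 1.9. Replicates with the same number deviated together from their group means, and the libraries of replicate 1 were shallower, so that differences within each replicate number are given beside the results. The separate source of the replicates is stated only in general terms, and p-values measure the spread between these libraries.

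Histone transcripts came from few genes. The 5 genes with the highest mean TPM held 59.1% of the mean histone TPM, and the 10 highest held 79.8%. HIST1H1C, which encodes a linker histone, had 68.6 and 100.0 TPM in UT cells, 130 and 167 in Ni-E cells and 70.6 and 122 in Ni-W cells. It was the highest member, since its lowest library was above every library of the others. HIST3H2A, HIST1H2BK, HIST1H2BD, HIST1H2AC, HIST1H2BH and HIST2H2BE followed with means of 26.4 to 36.8 TPM, and their ranges over the libraries overlapped. HIST1H3C (mean 8.50 TPM) was the highest H3 gene and HIST1H4E (7.30 TPM) the highest H4 gene. In all 6 libraries 15 members were listed at 0, and 38 had a mean under 1 TPM. Fractional counts were estimated for HIST1H2AD and HIST1H3D, whose gene models overlap. The paired copies HIST2H2AA3 and HIST2H2AA4, HIST2H3A and HIST2H3C, and HIST2H4A and HIST2H4B were among the members at 0 in all 6 libraries. How reads that match several copies were treated is not stated in the sources used here. A 0 for these copies thus need not mean that no transcript was present, and values of single members carry this uncertainty.

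**Figure D1:**
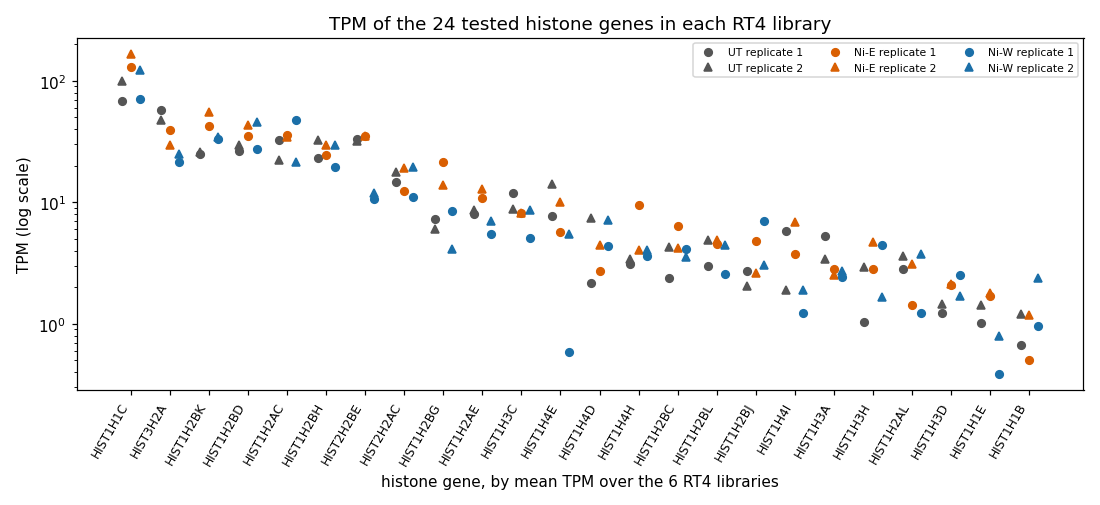
TPM (log axis) of the 24 histone genes that passed the expression filter, ordered by mean TPM, with circles for replicate 1 and triangles for replicate 2 of UT (grey), Ni-E (orange) and Ni-W (blue) RT4 cells. HIST2H2BE stands out with Ni-W values of 10.6 and 12.02 TPM below 4 values of 32.2 to 35.2 TPM in the other groups.

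The summed TPM of all 76 members was 380.0 and 412.9 in UT cells, 484.4 and 531.9 in Ni-E cells, and 325.0 and 402.8 in Ni-W cells. Both Ni-E libraries lay above the other 4, and UT and Ni-W libraries overlapped. With 2 libraries against 2, an exact permutation test cannot give a p below 0.333, and none was used. The 5 genes known for polyadenylated transcripts (HIST1H1C, HIST1H2AC, HIST1H2BD, HIST1H2BK and HIST2H2BE) made up 185.8 and 210.4 TPM of the sum in UT cells, 278.7 and 335.4 in Ni-E cells and 189.9 and 235.4 in Ni-W cells. The other 71 members summed to 194.2 and 202.5 TPM in UT cells, 205.7 and 196.5 in Ni-E cells, and 135.2 and 167.3 in Ni-W cells. The first set was thus higher in both Ni-E libraries than in UT libraries, and the second was lower in both Ni-W libraries. Without HIST3H2A, the second set summed to 136.8 and 154.9 TPM in UT, 166.4 and 166.9 in Ni-E, and 113.5 and 142.1 in Ni-W cells. Both Ni-E libraries were then above both UT libraries, and UT and Ni-W libraries overlapped. The difference between the sets thus depends on this gene. The split does not follow the gene models. HIST1H2BC and HIST2H2BF, in the second set, run 10302 and 29196 bases past the stem-loop, and HIST1H1C and HIST1H2AC, in the first, run 4 and 6. By class, the H2B sum was 130.9 and 144.5 TPM in UT, 185.0 and 197.9 in Ni-E, and 120.1 and 143.9 in Ni-W cells. The H1 sum, nearly all of it HIST1H1C, was 70.8 and 103.1, 133.3 and 169.9, and 72.8 and 125.4 TPM in the same order. H3 sums were between 25.2 and 32.4 TPM and H4 sums between 14.4 and 31.6 TPM over the 6 libraries. In bulk libraries, fewer cells in S phase and less histone mRNA per cell cannot be told apart.

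**Figure D2:**
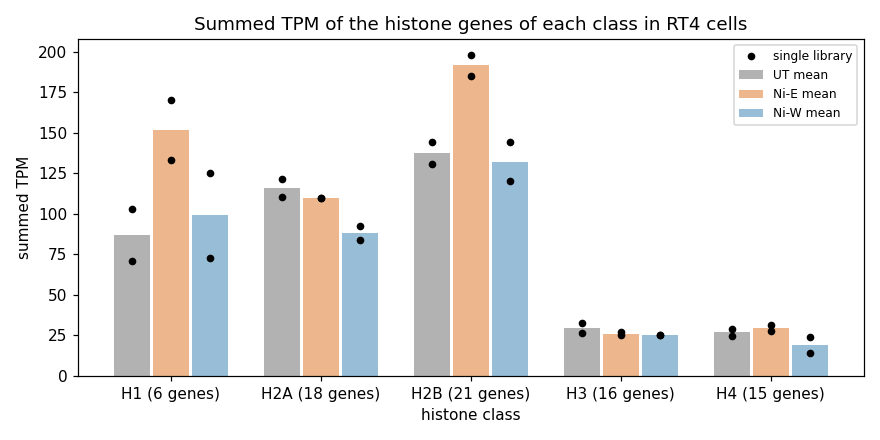
Summed TPM of the histone genes of each class in RT4 cells, with bars for the mean of 2 libraries and points for single libraries. H1 and H2B sums are higher in both Ni-E libraries than in UT libraries, while H3 sums stay between 25.2 and 32.4 TPM.

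For tests, 24 members passed the filter on low counts. Since a gene can pass it through 1 group alone, counts over these 24 are descriptions. The other 52 had at most 14 estimated counts in any library. A gene was called when edgeR's quasi-likelihood test gave a fold change of at least 1.5 and a Benjamini-Hochberg adjusted p under 0.05 over all 14502 genes tested.

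During exposure, the difference from UT cells was upward for 15 of the 24 members and downward for 9, with a median log2 fold change of 0.40, against −0.01 over all genes tested. By edgeR no member was called, where 1.45% of all genes were called higher and 0.71% lower. By DESeq2 none of the 61 members with any count was called, where the shares over all 19464 such genes were 2.37% and 1.38%. DESeq2 sets genes with low counts aside before it adjusts p, and members set aside in this way could not be called. At an unadjusted p under 0.05, both tools gave 2 members higher and none lower, against 7.19% and 5.03% of all genes by edgeR. On the CPM scale, both Ni-E libraries were above both UT libraries for 10 members and below them for 3, where the shares over all genes were 20.3% and 19.3%. HIST1H2BG, an H2B gene, had 7.34 and 6.02 TPM in UT cells and 21.4 and 14.0 in Ni-E cells. Its log2 fold change was 1.35 ± 0.37 (SE) with an adjusted p of 0.177 by edgeR. HIST1H2BK had 25.2 and 25.8 TPM in UT cells and 42.8 and 55.4 in Ni-E cells, with a log2 fold change of 0.99 ± 0.31 (adjusted p = 0.236, edgeR). HIST1H1C had a log2 fold change of 0.77 ± 0.47 (adjusted p = 0.699, edgeR), and its libraries also differed within each group. The groups did not overlap for any of these 3 genes. Within replicate 1 the log2 differences were 1.22 for HIST1H2BG, 0.80 for HIST1H2BK and 0.93 for HIST1H1C, and within replicate 2 they were 0.84, 1.07 and 0.66. With the replicate number as a block, all 3 rose (edgeR adjusted p = 0.0148, 0.0015 and 0.00466), where 7.64% of all genes were called higher and 5.0% lower. Among the other polyadenylated members, HIST1H2BD (log2 0.59 ± 0.41) and HIST1H2AC (0.36 ± 0.32) had both Ni-E libraries above UT in CPM, and HIST2H2BE (0.08 ± 0.24) did not.

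Downward differences during exposure were smaller. HIST3H2A, the highest H2A gene, had 57.5 and 47.6 TPM in UT cells and 39.4 and 29.6 in Ni-E cells, a log2 fold change of −0.64 ± 0.28 (adjusted p = 0.458, edgeR). HIST1H3A had 5.29 and 3.39 TPM in UT cells and 2.85 and 2.51 in Ni-E cells, a log2 fold change of −0.69 ± 0.43 (adjusted p = 0.711, edgeR). Neither gene was called with the block, although the groups did not overlap. HIST1H4H (0.90 ± 0.55) and HIST1H4E (−0.52 ± 0.84) had wide errors, and HIST1H4H reached 9.51 TPM in 1 of 2 Ni-E libraries against 4.03 in the other. By class, the median log2 fold change was 0.55 for the 8 H2B genes tested, 0.45 for 3 H1 genes, 0.10 for 4 H3 genes, 0.04 for 4 H4 genes and −0.07 for 5 H2A genes.

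**Figure D3:**
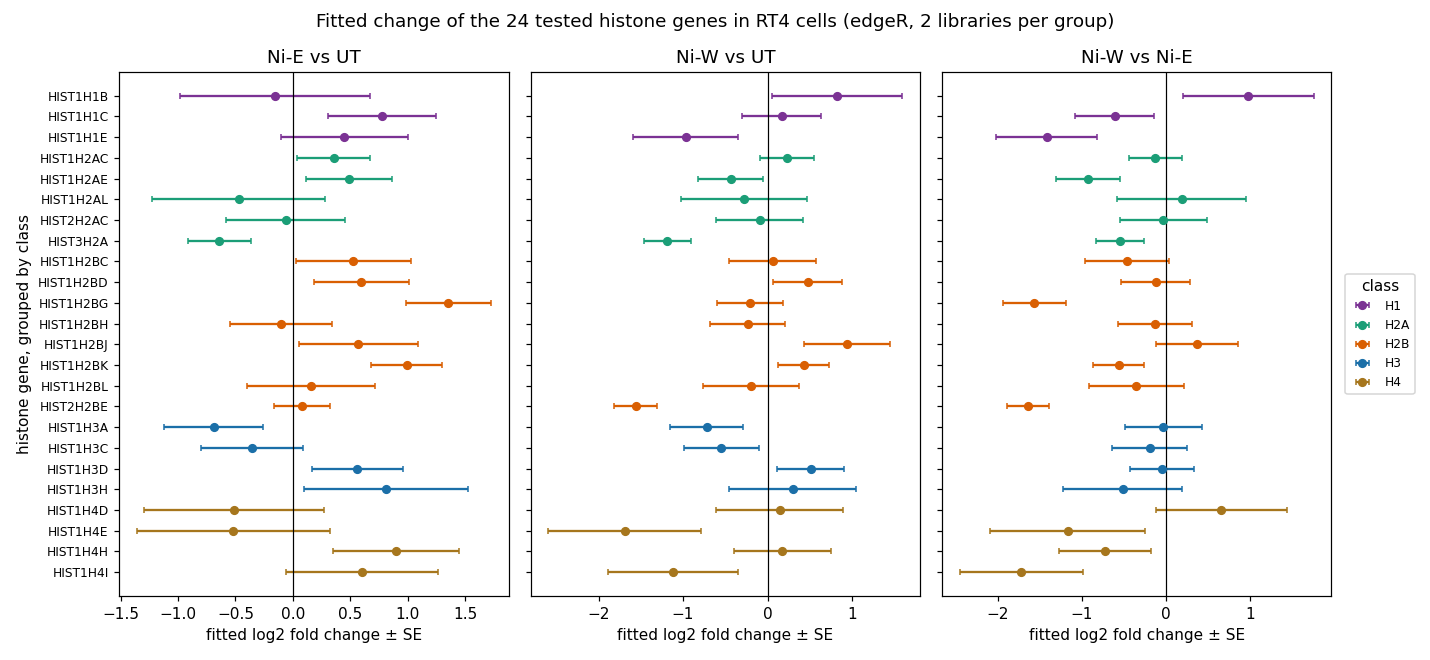
Fitted log2 fold change ± SE of the 24 tested histone genes in each RT4 contrast, coloured by class. HIST2H2BE is at −1.56 in Ni-W vs UT and −1.64 in Ni-W vs Ni-E, with an SE of 0.25 in both, and at 0.08 in Ni-E vs UT.

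After 2 weeks without nickel, 11 members were above UT cells and 13 below, with a median log2 fold change of −0.14, against 0.00 over all genes. The sign of this median was not stable, since it ran from −0.54 to 0.165 when single libraries were left out. No member was called by edgeR without a block, where 0.503% of all genes were called higher and 0.0965% lower. At an unadjusted p under 0.05, edgeR and DESeq2 each gave 2 members lower and none higher, against 3.14% and 5.99% of all genes by edgeR. HIST2H2BE, an H2B gene of the HIST2 cluster, had 33.4 and 32.2 TPM in UT cells, 34.9 and 35.2 in Ni-E cells, and 10.6 and 12.02 in Ni-W cells. The 4 libraries before washout lay close together and both Ni-W libraries lay far below them. Its log2 fold change from UT was −1.56 ± 0.25 with an adjusted p of 0.0773 by edgeR. The difference was −1.72 within replicate 1 and −1.39 within replicate 2. With the block it fell (adjusted p = 5.62e-05, edgeR), and it was also called by DESeq2 (adjusted p = 3.26e-05), by edgeR without a filter on low counts (0.0342) and by limma on log2(TPM + 1) (0.0341). Without the filter, edgeR called 31 of all 19464 genes lower and 162 higher, and limma called 17 of 13137 lower and 62 higher. HIST3H2A had 21.6 and 25.2 TPM in Ni-W cells, below both UT libraries, and a log2 fold change of −1.19 ± 0.28 (adjusted p = 0.191, edgeR). With the block it fell (adjusted p = 0.0062, edgeR), and DESeq2 called it too (adjusted p = 0.0377). DESeq2 called 0.514% of all genes lower and 1.76% higher. The third gene called lower with the block was HIST1H4E (log2 −1.75, adjusted p = 0.045, edgeR), in a fit that called 2.78% of all genes lower and 5.79% higher. HIST1H4E rested on few reads, with 15 and 46 estimated counts in UT cells and 1 and 18 in Ni-W cells, and its log2 fold change without block was −0.92 without Ni-W replicate 1, −0.98 without UT replicate 2 and −4.39 without Ni-W replicate 2.

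Members above UT after washout were not called in any fit. HIST1H2BJ had 2.71 and 2.04 TPM in UT cells and 7.05 and 3.04 in Ni-W cells (log2 0.94 ± 0.51, edgeR adjusted p = 0.782). HIST1H1B (0.83 ± 0.77) and HIST1H3D (0.51 ± 0.40) were next. HIST1H1C, with 70.6 and 122 TPM in Ni-W cells, overlapped UT cells, and its log2 fold change was 0.17 ± 0.47. Both libraries of Ni-W cells were below both of UT cells for 7 members and above for 3, and the shares over all genes were 14.1% and 15.1%. The 21 HIST1 members tested had a median of 0.06, with 11 above 0 and 10 below. Below 0 were also HIST2H2BE and HIST3H2A, the only HIST3 gene tested. HIST2H2AC, the other HIST2 gene tested, was at −0.09 ± 0.52 with overlapping groups.

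When Ni-W cells were compared with Ni-E cells, 20 of the 24 members were below 0, and the median log2 fold change was −0.41, against 0.02 over all genes. Neither a member nor any other gene was called by edgeR without a block (0.0% in both directions). At an unadjusted p under 0.05, 2 members were lower by edgeR and 2 by DESeq2 and none higher, against 2.32% lower and 3.25% higher of all genes by edgeR. This contrast shares its libraries with the former ones, so its values are not independent of them. HIST2H2BE was at −1.64 ± 0.25 (adjusted p = 0.21, edgeR) and was called by DESeq2 (adjusted p = 3.42e-05), which called 0.257% of all genes lower and 0.457% higher. HIST1H2BG had 21.4 and 14.0 TPM in Ni-E cells and 8.48 and 4.15 in Ni-W cells, a log2 fold change of −1.57 ± 0.38 (adjusted p = 0.429, edgeR). With the block, HIST2H2BE (adjusted p = 0.000137), HIST1H2BG (0.0178) and HIST1H1C (log2 −0.68, 0.0285) fell by edgeR, where 1.8% of all genes were called lower and 2.72% higher. HIST1H4I was at −1.72 ± 0.73 on 2 and 6 estimated counts in Ni-W cells. None of the 24 members tested had both Ni-W libraries above both Ni-E libraries, against 12.7% of all genes, and 8 had both below, against 12.7%. The 3 largest upward differences, HIST1H1B, HIST1H4D and HIST1H2BJ, were 0.98 ± 0.78, 0.66 ± 0.78 and 0.37 ± 0.49.

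None of 3 main factors of histone gene expression was called. SLBP had 91.3 and 89.0 TPM in UT cells, 104 and 107 in Ni-E cells and 98.4 and 88.6 in Ni-W cells. NPAT was at 6.76 and 4.02, 8.39 and 6.50, and 10.99 and 4.41 TPM, and CASP8AP2 at 8.64 and 6.46, 10.8 and 9.24, and 12.2 and 6.08 TPM, in the same order. For SLBP, NPAT and CASP8AP2 no contrast was called by edgeR with or without the block. Of 19 tested genes for histone mRNA processing and its control, 10 were above 0 and 9 below in Ni-E vs UT, and none was called. With the block 1 of them, CCNE2 (cyclin E2), rose (log2 0.82, edgeR adjusted p = 0.0121), in a fit that called 7.64% of all genes higher. None of the 11 replication-independent histones or of the 16 histone chaperones was called without the block in any contrast. With it, CENPA, the centromeric H3 variant, was higher in Ni-W than Ni-E cells (log2 0.93, edgeR adjusted p = 0.0103), and its chaperone HJURP higher in Ni-W than UT cells (0.61, edgeR adjusted p = 0.00687). These are 1 gene of each list, where the same fit called 2.72% and 5.79% of all genes higher.

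S phase genes are expressed when histones are made. All 25 tested were above 0 in Ni-E vs UT (median log2 0.32), 12 were above 0 in Ni-W vs UT (median −0.02) and 2 in Ni-W vs Ni-E (median −0.40). TYMS, the thymidylate synthase, was the only one called without the block, with 162 and 110 TPM in UT cells and 323 and 277 in Ni-E cells (log2 1.14 ± 0.18, edgeR adjusted p = 0.0456), but its call was lost without UT replicate 1 (0.189), UT replicate 2 (0.344), Ni-E replicate 1 (0.364) or Ni-E replicate 2 (0.316). With the block, TYMS, RRM2 (log2 0.92) and POLA1 (0.60) rose in Ni-E vs UT, TYMS rose in Ni-W vs UT and GINS2 (−0.70) fell in Ni-W vs Ni-E. These 3 of 25 genes called higher in Ni-E vs UT stand beside 7.64% of all genes. Mitosis and proliferation genes went the other way, with 2 of 14 above 0 in Ni-E vs UT (median −0.39), 13 in Ni-W vs UT (0.29) and 14 in Ni-W vs Ni-E (0.63). None of the 14 was called without the block, and with it AURKA and PLK1 fell in Ni-E vs UT, where 5.0% of all genes were called lower. In Ni-W vs Ni-E 8 genes rose with the block (PLK1, AURKA, CCNB1, UBE2C, TOP2A, BUB1, CCNB2 and TPX2), where 2.72% of all genes were called higher. These lists differed between the groups in the same libraries as the histone genes, and their part in the histone values was not tested.

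**Figure D4:**
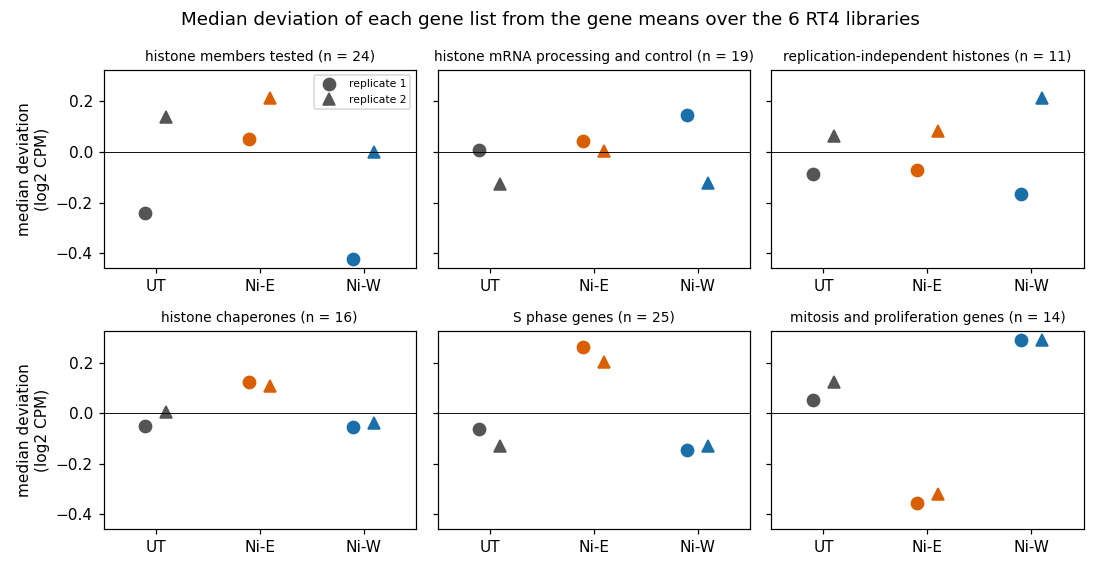
Median deviation of the genes of 6 lists from their own mean over the 6 RT4 libraries (log2 CPM with an offset of 0.5), one point per library. S phase genes are at 0.26 and 0.20 in Ni-E cells and below 0 elsewhere, mitosis and proliferation genes at −0.36 and −0.32 in Ni-E cells, and the 24 histone genes differ between replicates as much as between groups.

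H3K4me3, a mark of active promoters, was measured in BEAS-2B cells, another line than the one with RNA-Seq, so that both readouts cannot be joined. Levels are the RPKM within 2 kb of the transcription start site. The values were whole multiples of 1 step in 99.992% of genes or more, within the rounding of the files, and these steps correspond to depths, in units of 1 M reads, of 28.4 in UT, 37.5 in Ni-E and 29.9 in Ni-W cells. The floor of 3 reads corresponds to 0.0264, 0.02 and 0.0251 RPKM. With 1 library per condition there is no replicate check and no test. Each interval is a 95% Wilson interval and covers counting error only. Of the 69 members, 60 had at least 1 RPKM in 1 library, 53 of them in all 3. HIST1H2AJ and HIST1H2BM reached it in Ni-W cells only, and 5 members, among them HIST1H2BB and HIST1H3C, in UT and Ni-E cells only, so that these 7 entered the set through the conditions in which they were high. Their windows overlap, since histone genes lie in divergent pairs, and the 60 members fall in 34 separate windows. HIST1H2AD and HIST1H3D are listed with the same values.

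HIST1H2AC had the highest level of HIST1, with 10.1 RPKM in UT cells (95% interval 9.53 to 10.7), and lay above 92.1% of all promoters. HIST3H2BB, with 9.47 RPKM (8.92 to 10.1), was highest in HIST3, and HIST2H2AC, with 7.24 (6.76 to 7.75), in HIST2. HIST4H4 had 5.47 RPKM. By the mean of 3 libraries, the lowest members of HIST1, HIST3 and HIST2 were HIST1H2BA, HIST3H3 and HIST2H2BA, with 0.211, 0.238 and 0.079 RPKM in UT cells. HIST1H2BA and HIST3H3 are testis-type histone genes. The median of the 60 marked members was 5.01 RPKM in UT cells, against 6.10 for the 14127 promoters with at least 1 RPKM.

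During exposure, the marked histone promoters were mostly slightly higher. RPKM was higher in Ni-E than in UT cells at 50 of 60 members, or in 28 of 34 windows, where 28.3% of all marked promoters were higher. The median ratio was 1.06, against 0.952 over all marked promoters, and ranged from 0.852 to 1.23. The chromatin dynamic score divides RPKM by the median of its library, takes square roots, and subtracts the later-named condition. Its median was 0.168 over the 60 members and 0.0744 over all marked promoters, and scores outside ±0.100 are past the 95% range of counting error. This held for 43 members, all of them upward, and for 39.0% of all marked promoters upward and 5.17% downward. The highest scores were those of the divergent pair HIST1H2BC (0.399) and HIST1H2AC (0.387) and of HIST1H2BO (0.384). The HIST1H2AC level was 11.9 RPKM (11.3 to 12.4) in Ni-E cells. The lowest were HIST1H3C (−0.0187), HIST1H2BB (0.00528) and HIST3H2BB (0.0339). At 1.5-fold after median scaling no member passed in either direction, against 1.01% of marked promoters upward and 0.595% downward.

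More than 6 months after exposure, RPKM was higher than in UT cells at 4 of 60 members, where 5.54% of all marked promoters were higher, so that lower values were found across the library. The median ratio of Ni-W to UT was 0.664 for histone members and 0.572 for all marked promoters, and the median score −0.0576 and −0.197. Over all 69 members the median score was −0.021, and it turned to 0.0467 with quantile normalization. Past the range of counting error, 19 members were higher and 25 lower, against 12.6% and 63.4% of marked promoters. Ratios over the 60 members ran from 0.248 to 1.36. The members at these ends, HIST1H2BB and HIST1H2AJ, passed the minimum of 1 RPKM only through conditions in which they were high. Among members with at least 1 RPKM in all 3 libraries, ratios ran from 0.386 (HIST1H3A) to 1.06 (HIST2H2BC). After median scaling, 5 members were lower by 1.5-fold or more (HIST1H3A, HIST1H4A, HIST1H2BB, HIST1H3C and HIST1H1D), against 18.4% of marked promoters, and 2 were higher, against 4.39%. The latter were HIST1H2AJ and HIST1H2BM, which passed the minimum of 1 RPKM through Ni-W cells alone, as HIST1H2BB and HIST1H3C did through UT and Ni-E cells, so nothing is read from these counts. HIST1H2BB had 1.31 RPKM (1.12 to 1.54) in UT and 0.326 (0.238 to 0.445) in Ni-W cells, and HIST1H3A 4.05 (3.70 to 4.44) and 1.56 (1.35 to 1.80). The lowest scores were those of HIST1H3A (−0.426), HIST1H4A (−0.419) and HIST1H3C (−0.390). The highest were HIST3H2BB (0.361), HIST3H2A (0.355) and HIST1H2BF (0.324).

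By cluster, the median ratio of Ni-W to UT was 0.640 for 49 HIST1 and 0.842 for 8 HIST2 members. It was 0.937 for HIST3H2A and HIST3H2BB, and 0.585 for HIST4H4. The windows of HIST3H2A and HIST3H2BB overlap, as do many within HIST1 and HIST2, so members are not separate measurements. For HIST3H2A the UT, Ni-E and Ni-W libraries gave 9.40 RPKM (8.85 to 9.98), 8.65 (8.20 to 9.14) and 8.79 (8.28 to 9.34), and these intervals overlap. HIST1H2AC, with a similar level in UT cells, was at 5.81 (5.40 to 6.26) in Ni-W cells. Within HIST1, near neighbours differed. HIST1H2BF had 5.38 RPKM in UT and 5.30 in Ni-W cells, and HIST1H4E had 4.32 and 3.97, with overlapping intervals. On either side of them, HIST1H4D went from 2.48 to 1.45 and HIST1H2BG from 4.21 to 2.09. Further along, HIST1H2AJ and HIST1H2BM were at 0.810 and 0.801 RPKM in UT and 1.10 and 1.07 in Ni-W cells. They have overlapping windows and passed the minimum of 1 RPKM through Ni-W cells alone, so nothing is read from their higher values there. HIST1H2AK went from 9.06 RPKM in UT to 4.63 in Ni-W cells. By class, a score above 0 was found for none of 5 marked H1, 8 of 16 H2A and 8 of 17 H2B genes. It was found for 3 of 11 H3 and 4 of 11 H4 genes, where 21.9% of all marked promoters were above 0. Divergent H2A and H2B genes share reads, and HIST1H3D has the values of HIST1H2AD, so the classes are not separate. With 1 member per window, 13 of 34 had a score above 0.

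Between Ni-E and Ni-W cells, 5 of 60 members had a higher RPKM after washout, against 7.35% of marked promoters. The median ratio was 0.609, beside 0.606 over all marked promoters, and the median score −0.196, beside −0.262. At 1.5-fold after median scaling 19 members were lower, against 30.3%, and 2 were higher, against 4.07%. The 2 were again HIST1H2AJ and HIST1H2BM, which passed the minimum through Ni-W cells alone. The lowest scores were HIST1H2AC (−0.645), HIST1H2BC (−0.603) and HIST1H2BN (−0.577), and the highest HIST3H2BB (0.327), HIST3H2A (0.305) and HIST1H2BM (0.196). Past counting error, 7 members were higher and 39 lower, against 10.2% and 71.9% of marked promoters.

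**Figure D5:**
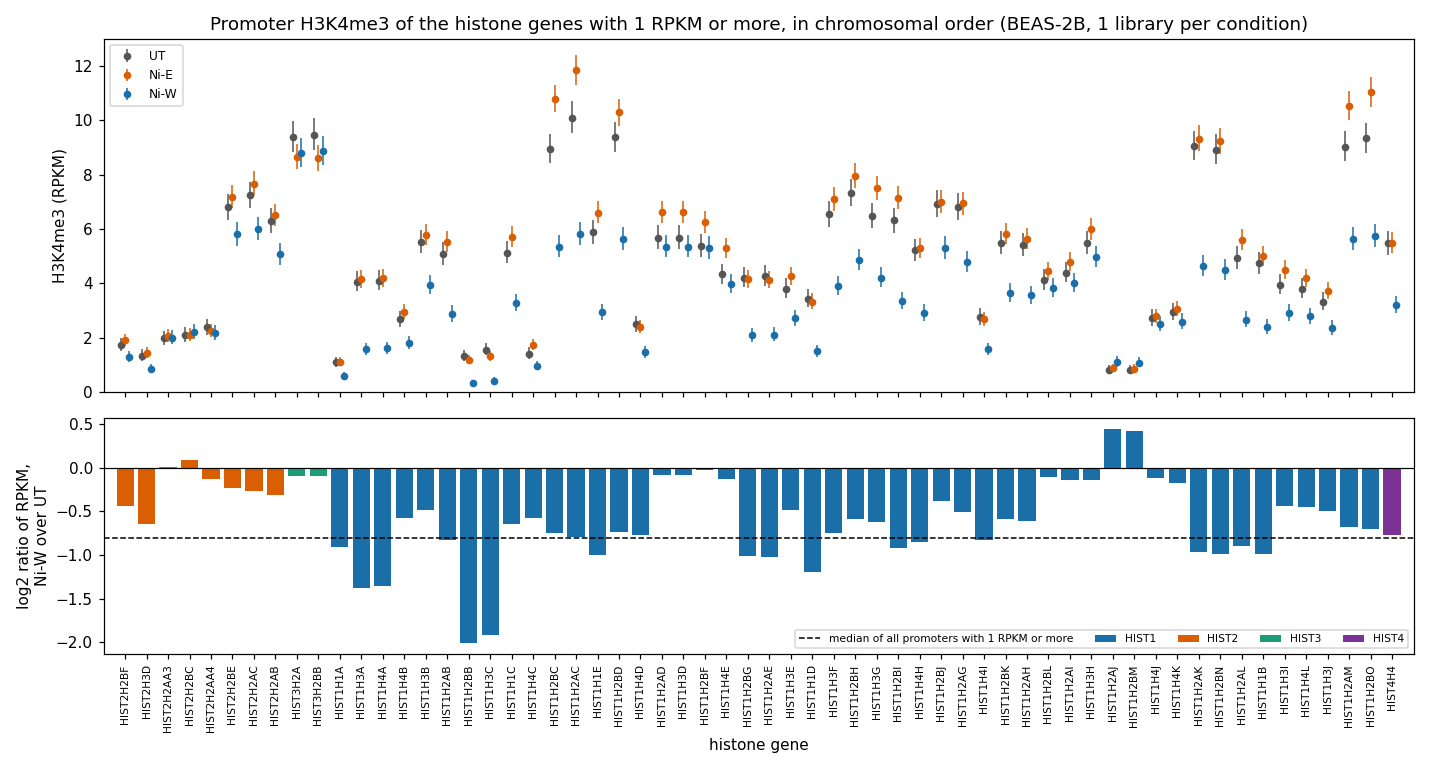
Upper panel, promoter H3K4me3 in RPKM of the 60 histone genes with at least 1 RPKM, in chromosomal order, with 95% Wilson intervals of the reads, for UT (grey), Ni-E (orange) and Ni-W (blue) BEAS-2B cells. Lower panel, log2 ratio of Ni-W to UT by cluster, with a dashed line at the median of all marked promoters (ratio 0.572), where HIST1H2BB and HIST1H3C are lowest and HIST1H2AJ and HIST1H2BM are the highest of 4 members above 0. HIST1H2AJ and HIST1H2BM reached 1 RPKM in Ni-W cells only, and HIST1H2BB and HIST1H3C in UT and Ni-E cells only.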

How the data were processed

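RNA-Seq of RT4 cells (6 libraries) and H3K4me3 ChIP-Seq of BEAS-2B cells (3 libraries) were used, and inputs were not used here. Estimated counts, TPM and FPKM per gene were deposited from RSEM, and the FPKM entered no result. STAR and DESeq2 are named in the submitters' processing notes, and the study's methods name hg19 for RNA-Seq without saying whether this holds for the RSEM files, whose version and build are not given in the sources used here. The RPKM deposited for ChIP-Seq counts, within 2 kb of each transcription start site, reads that the authors had mapped with BWA on hg38 after removing duplicates, without peak calls.

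Rounded counts entered edgeR (quasi-likelihood, TMM, filterByExpr) with 3 groups and no block. Alternatives were another tool (DESeq2, or limma on log2(TPM + 1) for a mean of at least 1), RLE factors, other filters (none, or a minimum of 10 in all libraries), a replicate block, 2 groups only, no fold threshold and each library left out. For H3K4me3 they were no scaling, quantile normalization, a log2 ratio, a minimum of 1 RPKM and 1 member per window. Replicate numbers come from titles that mark 1 library per group as a duplicate. Deviations of same-numbered libraries from group means correlated at 0.657 (UT, Ni-E), 0.764 (UT, Ni-W) and 0.689 (Ni-E, Ni-W) over 14502 genes, so they were taken as paired. Only the fit with the replicate block uses this pairing, and every ± SE is from the fit without it. In Ni-E vs UT the SE was 0.47 without and 0.15 with the block for HIST1H1C, and 0.43 and 0.47 for HIST1H3A.

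The members and lists were chosen with earlier results of these data known. Named members were those called, the 3 largest rises and falls of each contrast, the highest of each class, the 5 known for polyadenylated transcripts and, for H3K4me3, the 3 highest and lowest scores and the extremes of each cluster. SLBP, NPAT, CASP8AP2 and list genes called without or with the block (by rule the 4 with the smallest p of each list and contrast) are also named, and other genes were chosen after their values were seen. CPSF3L was not used here.

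The fits were tested on simulated data for Ni-E vs UT. At the residual spread fitted without a block (14316 genes), 59 of 100 genes changed 4-fold and 3 of 100 changed 2-fold were recovered, with 6 wrong calls. The fit with the block recovered 50 and 1 of 100 there. With a shift between replicate numbers (14370 genes), the block recovered 99 and 88 of 100, with 14 wrong calls. In that same simulation the fit without a block recovered 31 of 100 genes changed 4-fold and 0 of 100 changed 2-fold, with 0 wrong calls. A member not called without the block may thus still differ. For H3K4me3, 200 of 200 promoters changed 2-fold up or down were recovered among 13843, and 5.02% of unchanged promoters were past the range. This simulation held counting error only, so it does not show how smaller changes would be recovered. Versions were edgeR 4.0.16, DESeq2 1.42.0 and limma 3.58.1 in R 4.3.3, and scipy 1.17.1, matplotlib 3.10.9, pandas 2.3.3 and numpy 2.4.6 in Python 3.11.15.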

Additional observations from a re-analysis of the deposited data

How the results depend on the processing

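Without a block, no member was called in any contrast under RLE factors, at least 10 counts in every library, only the 2 groups compared, no fold threshold, or any library left out (0 to 0). The replicate block gave 3 called members in each contrast, DESeq2 2 (Ni-W vs UT) and 1 (Ni-W vs Ni-E), and no filter and limma 1 each (Ni-W vs UT). Paired by replicate number, edgeR called 1833, 1243 and 655 genes in Ni-E vs UT, Ni-W vs UT and Ni-W vs Ni-E, against 314, 87 and 0 without the block. DESeq2 called 730, 442 and 139 genes, and at least 10 counts in every library 209 and 54 in Ni-E vs UT and Ni-W vs UT. Limma gave 170 in Ni-E vs UT, no filter 193 (Ni-W vs UT) and 14 (Ni-W vs Ni-E), and only the 2 groups compared 0 (Ni-W vs UT). Leaving out 1 library gave 0 to 320, 0 to 38 and 0 to 0 genes. With 1 library left out, the median log2 fold change of the members was 0.255 to 0.523 (Ni-E vs UT, 0.248 with DESeq2) and −0.813 to −0.094 (Ni-W vs Ni-E), and ran from −0.54 (without Ni-W replicate 2) to 0.165 (without UT replicate 2) in Ni-W vs UT, where DESeq2 (0.014), no filter (0.016) and limma (0.016) turned its sign too. Over the 3 contrasts, the block gave 1 called gene each among processing genes, replication-independent histones and chaperones, 5 among S phase genes and 10 among mitosis genes. S phase genes were 2 with DESeq2 or no filter, 0 with at least 10 counts or limma, and 0 to 1 with 1 library left out, and mitosis genes 1 with DESeq2.

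Some signs changed when 1 library was left out. The log2 fold changes ran from −1.115 to 0.192 for HIST1H4E and −0.02 to 0.195 for HIST2H2BE in Ni-E vs UT. In Ni-W vs UT they ran from −0.54 to 0.643 for HIST1H1C, −0.2 to 0.577 for HIST1H2AC, −0.147 to 0.906 for HIST1H2BD, −0.13 to 0.118 for SLBP, −0.109 to 0.813 for NPAT and −0.153 to 0.473 for CASP8AP2. In Ni-W vs Ni-E they ran from −0.064 to 0.756 for HIST1H2BJ, −0.01 to 1.197 for HIST1H4D, −0.913 to 0.255 for HIST1H3C, −0.549 to 0.22 for HIST1H2AC, −0.741 to 0.315 for HIST1H2BD, −0.577 to 0.336 for NPAT and −0.55 to 0.068 for CASP8AP2. SLBP in Ni-W vs UT was 0.001 with only the 2 groups compared and 0.05 with limma. HIST2H2BE stayed between −1.876 and −1.304 in Ni-W vs UT.

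For H3K4me3, the median score over all 69 members was 0.159 in Ni-E vs UT, and 0.0646 without median scaling, 0.0884 with quantile normalization, 0.0705 as a log2 ratio and 0.136 with 1 member per window. In Ni-W vs UT it was −0.021, and turned to 0.0467 with quantile normalization, with −0.297 without scaling, −0.372 as a log2 ratio, −0.0576 for members with 1 RPKM and −0.00241 with 1 member per window. In Ni-W vs Ni-E it was −0.174, with −0.38, −0.0345, −0.46 and −0.196 for no scaling, quantile normalization, log2 ratio and members with 1 RPKM. The cause of these differences was not tested. The 52 members under the filter, and the members below 1 RPKM, are limited by depth.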
